A study of Mus musculus with 2 samples.

Results

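Genes of the bone morphogenetic protein (BMP) pathway were examined for binding of Tcf3 in mouse embryonic stem cells. They were 10 of the 17031 genes named on the arrays, namely the ligands Bmp2, Bmp4 and Bmp7, the receptor Bmpr1a, the signal carrier Smad1, the inhibitory Smads Smad6 and Smad7, and the target genes Id1, Id2 and Id3. Their probes were all non-control spots whose gene name in the array annotation was one of these, 378 of 474380, and 0 of them carried a joined name of 2 genes. Array 1 carried 173 of these probes, for Bmp2, Bmp7, Smad1, Id1 and Id3, and array 2 carried 205, for Bmp4, Bmpr1a, Smad6, Smad7 and Id2.

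BMP ligands are secreted proteins that bind a complex of type I and type II serine/threonine kinase receptors. The receptors phosphorylate Smad1, Smad5 and Smad9 (also called Smad8), which enter the nucleus with Smad4 and act on target genes, among them the Id genes. Id proteins bind helix-loop-helix factors and keep them off DNA. Smad6 and Smad7 are induced by the pathway and inhibit it. In mouse embryonic stem cells, BMP4 acting through Smads and Id genes, together with the cytokine LIF, is known to sustain self-renewal. Tcf3, now named Tcf7l1, is the Tcf/Lef factor through which the Wnt pathway acts on many pluripotency genes in these cells, mostly as a repressor.

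The cells were E14, an established mouse embryonic stem cell line, grown without feeder cells, unmodified and untreated as far as the labels say. Chromatin sheared to about 500 bp was immunoprecipitated, and amplified immunoprecipitate (Cy5) and amplified input DNA (Cy3) were hybridised together to each of 2 promoter arrays. The labels list several antibodies without assigning one to the arrays, so Tcf3 is taken from the sample titles. The arrays carry different genes, so every value is a single measurement of E14 chromatin. Neither array was a replicate or a control immunoprecipitation, and having only 2 arrays limits the precision. No test between samples was possible, and the SDs below are taken over neighbouring probes of 1 array.

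The unit throughout is the log2 ratio of immunoprecipitate over input, centred on the array's median, and folds are of this centred ratio. A set is a probe with its nearest neighbour on either side within 1000 bp, and the set mean is the mean log2 ratio of its 2 to 3 probes. With all spots, a set had to reach 1.47 on array 1 or 1.69 on array 2 to be called. In addition, either the central probe had to reach 2.22 (2.40 on array 2) with a neighbour at 0.92 (0.99), or a pair of probes in the set had to reach 1.85 each (2.00). These bounds come from the scatter of the values below the median and are a calling rule, not a test. The bound for a set came from sets of 3 probes and was used unchanged for sets of 2, which average fewer probes. In many spots the Cy5 signal was not above background and the scanner software had written a substitute, called a surrogate. Spots were counted as surrogates when either channel held one. Among the 10 genes, the input channel did so in 2 probes of Bmp4 and 2 of Bmpr1a. Surrogates made up 30.7% of array 1 and 51.8% of array 2, against 17.3% and 35.1% for the probes of these 10 genes. The calls were therefore also made with measured spots only, which recentred the log ratios by 0.04 on array 1 and 0.18 on array 2, and with the array-wide trend of the log ratio on GC content subtracted. Leaving out surrogates drops mostly spots with a low immunoprecipitate signal, the upper part of the ratio. Genes can therefore pass with measured spots because low neighbours were removed, and these calls are no independent support. Tcf7l1 (2.46 ± 0.83, SD, 3 probes) and Axin2, a Wnt target (2.43 ± 0.27, SD, 3 probes), were called under all 4 of these settings. With all spots, the background share was 22.4% for the array holding Tcf7l1 and 3.62% for the one holding Axin2. Calls of these chosen genes cannot tell Tcf3 from the other antibodies listed, so the label itself was not tested.

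The probes on which the results turn are shown as the arrays hold them, on the plus strand. Capitals mark a Tcf/Lef word (CTTTGTA) in Bmp4 and the GC-rich word bound by Smad1 and Smad5 (GGCGCC) in Id2. Those of Id1 are shown because they form its highest set. The first 2 of them were called under all 4 settings. The third was called only with measured spots and the GC trend subtracted. Those of Bmp4 are shown because they form a pair upstream of the start, and that of Id2 because it stood alone. That of Bmp2 is shown because it was called with measured spots and the GC trend subtracted.
Id1 probe at chr2:152478412-152478459: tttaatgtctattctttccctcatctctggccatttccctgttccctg
Id1 probe at chr2:152478593-152478640: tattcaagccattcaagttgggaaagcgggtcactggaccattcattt
Id1 probe at chr2:152478790-152478834: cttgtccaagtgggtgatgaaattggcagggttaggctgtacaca
Bmp4 probe at chr14:41711872-41711919: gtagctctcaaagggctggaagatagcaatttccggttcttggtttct
Bmp4 probe at chr14:41711979-41712038: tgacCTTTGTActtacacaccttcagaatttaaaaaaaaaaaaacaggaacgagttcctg
Id2 probe at chr12:22935352-22935396: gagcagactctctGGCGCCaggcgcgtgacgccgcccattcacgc
Bmp2 probe at chr2:133289283-133289342: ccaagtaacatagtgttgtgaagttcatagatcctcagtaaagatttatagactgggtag

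These positions follow the array annotation, whose genome build is not named in the sources used here. For 6 of the genes (Bmp4, Bmpr1a, Smad1, Smad6, Id2 and Id3) a probe sequence matched the RefSeq promoter window of assembly GRCm38.p6 exactly, which gives each probe's distance from the RefSeq start, counted along the gene. The promoter of Smad1 is shown because the highest single probe of the 10 genes lies across its start. It is written along the gene, on the minus strand of chromosome 8 in GRCm38.p6, from 250 bases before the start. The first run of capitals is the probe from 234 to 179 bases upstream, and the second is the probe from 28 bases before to 16 bases after the start.
Smad1 promoter at chr8:79399412-79399678: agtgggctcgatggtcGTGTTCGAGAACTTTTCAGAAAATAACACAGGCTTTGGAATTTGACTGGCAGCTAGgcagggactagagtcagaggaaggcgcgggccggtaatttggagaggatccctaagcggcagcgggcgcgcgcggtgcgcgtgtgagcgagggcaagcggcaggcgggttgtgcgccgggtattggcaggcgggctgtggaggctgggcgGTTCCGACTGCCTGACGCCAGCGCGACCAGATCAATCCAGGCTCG

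With all spots, Bmp7 and Id1 were called, 2 of the 10 genes, beside 13.0% of all 16889 genes tested. Both lie on array 1, where 22.4% of genes were called, so that 2 of 5 genes were called there and 0 of 5 on array 2, where the share of all genes was 3.62%. With measured spots only, 5 were called (Bmp4, Bmp7, Smad6, Smad7 and Id1), beside 13.7% of all genes, 16.3% on array 1 and 11.0% on array 2. With the GC trend subtracted from all spots, 2 were called (Bmp4 and Id1), beside 10.7% of all genes, 18.2% on array 1 and 3.13% on array 2. With the trend subtracted from measured spots, 3 were called (Bmp2, Bmp4 and Id1), beside 13.3% of all genes, 19.1% and 7.32% on the arrays. Id1 alone was called under all 4 settings, and Bmpr1a, Smad1, Id2 and Id3 were called under none of them.

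**Figure D1:**
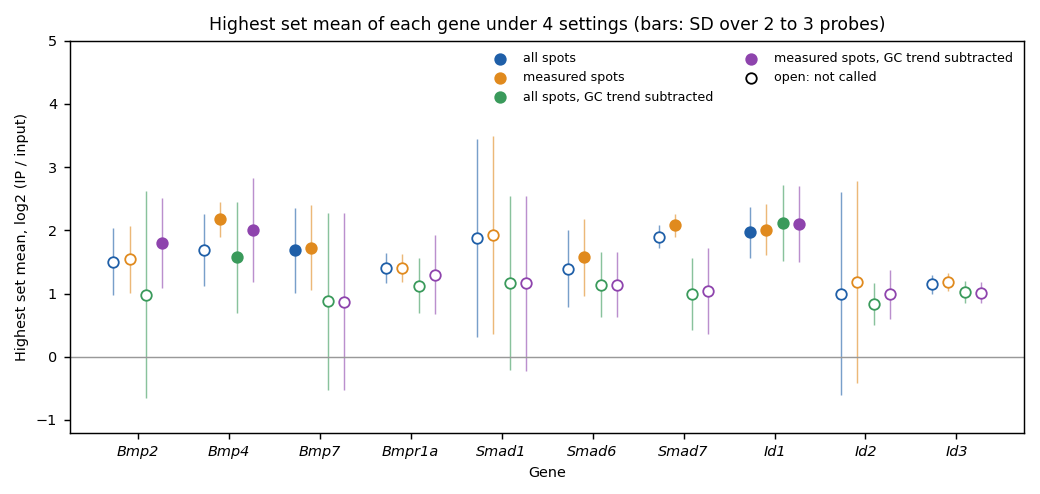
Highest set mean of each gene (y axis, log2 ratio of immunoprecipitate over input) under the 4 settings, with bars for the SD over the 2 to 3 probes of the set; filled points are called and open points are not. Id1 is filled in all 4 settings at 1.97 to 2.11, while Bmp7 and Smad7 stand at 1.68 to 2.08 without and at 0.87 to 1.04 with the GC trend subtracted.

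The ligand Bmp2, a BMP able to induce bone and active in early embryonic patterning, was not called with all spots. Its highest set stood at 1.50 ± 0.53 (SD, 3 probes; chromosome 2, 133295266 to 133295617), with probes at 0.98, 1.49 and 2.04. The set mean passed the bound of array 1, but only 1 of its probes reached 1.85. Those probes had a GC content of 64.4%, 48.9% and 68.9%, and with the GC trend subtracted they stood at 0.06, 1.36 and 0.81. A second stretch of 10 probes in a row above 0, from 133292769 to 133294385, averaged 0.81 at a mean GC content of 59.7%. At the other end of the covered region lay the probe printed above, at 1.97 with a GC content of 36.7%. Its nearest measured neighbour stood at 0.96, and with the trend subtracted from measured spots both gave a set of 1.80 ± 0.71 (SD, 2 probes), which was called. With surrogates included, its neighbours stood at -0.10 and -0.73, and it was not called.

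Bmp4, the BMP ligand best known for its use in embryonic stem cell culture, gave a pair of neighbouring measured probes upstream of its start. The probe from 1170 to 1123 bases before the start stood at 2.19, with signals of 633 in the input and 2825 in the immunoprecipitate. Its neighbour from 1289 to 1230 bases before the start, which holds the Tcf/Lef word, stood at 1.80, with signals of 154 and 523. The next probe upstream was a surrogate at 1.07, and the set of all 3 stood at 1.685 ± 0.57 (SD), narrowly under the bound of 1.691. It was not called with all spots: beside the set mean, its central probe stayed under 2.40 and only 1 of its probes reached 2.00. The pair alone had a mean of 1.99. With measured spots, recentring brought this to 2.18 ± 0.28 (SD, 2 probes; 4.52-fold), the bounds of array 2 were lower (1.37 for a set and 1.76 for each of a pair), and both probes were called. Only 1.99% of the genes of array 2 had a higher set mean with measured spots. The GC content of the pair was 45.8% and 33.3%. After subtraction of the GC trend from all spots its probes stood at 2.58 and 0.95. Only the first of them was called then, with a set mean of 1.46 ± 0.97 (SD, 3 probes) around it, and likewise after subtraction from measured spots (1.70 ± 0.78, SD, 3 probes). The highest sets of Bmp4 in these settings, 1.58 and 2.00, were centred on the second probe, which was not called. The pair lay within 7 probes in a row above 0, from 2747 to 835 bases before the start, of which 4 were surrogates. Of its 51 probes, 7 stood above 1.

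Bmp7, a ligand with roles in kidney and eye development, had a highest set of 1.68 ± 0.67 (SD, 3 probes; chromosome 2, 172684332 to 172684650). Its probes stood at 1.01, 2.35 and 1.69, all of them measured, and the middle probe was called with all spots and with measured spots. The GC content of these probes was 57.8%, 82.2% and 64.4%, and with the GC trend subtracted they stood at 0.47, 0.47 and 0.77. The call was lost, and the highest set of Bmp7 was then another one at 0.88 ± 1.40 (SD, 3 probes). Position relative to a start was not computed for Bmp2, Bmp7, Smad7 and Id1, which had no promoter window here.

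**Figure D2:**
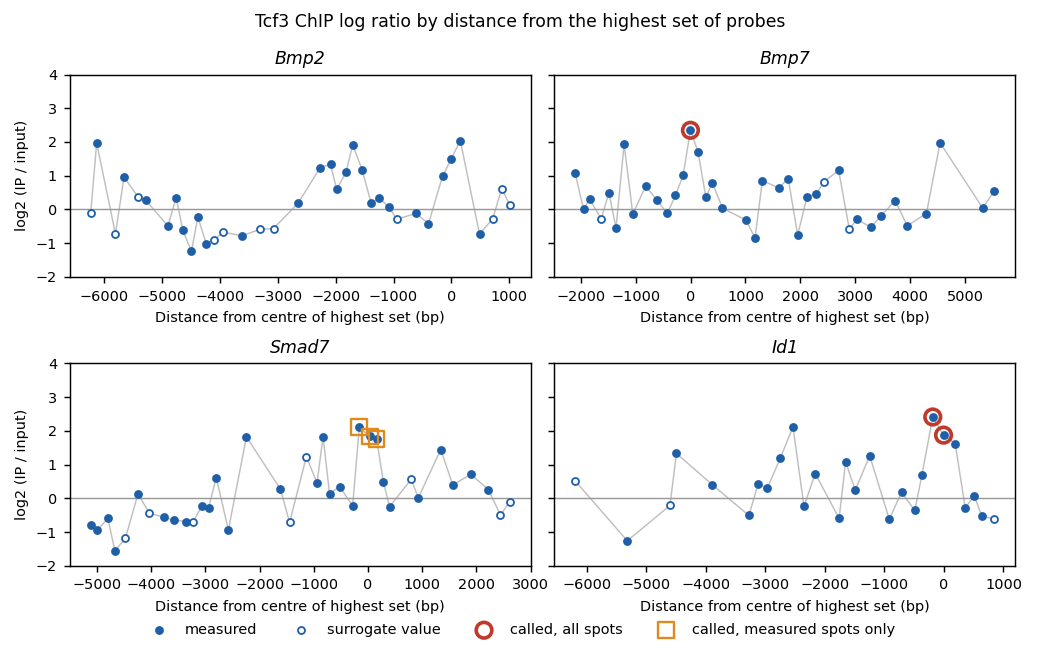
Log2 ratio of each probe (y axis) against its distance in bp from the centre of the gene's highest set (x axis) for Bmp2, Bmp7, Smad7 and Id1; filled points were measured, open points are surrogates, red circles mark probes called with all spots and orange squares those called with measured spots only. Id1 has 2 called neighbouring probes at 2.41 and 1.88, Bmp7 has 1 at 2.35, and the 3 called probes of Smad7 lie between 1.76 and 2.11.

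Bmpr1a encodes a type I BMP receptor. Its highest set with all spots was 1.40 ± 0.23 (SD, 2 probes), more than 4 kb upstream of the start, and both probes were surrogates with a GC content of 33.3% and 31.7%. With measured spots, the highest set moved to the start itself at 1.40 ± 0.22 (SD, 3 probes), with probes between 1.16 and 1.60. That set was part of 5 measured probes in a row above 0, from 493 bases before to 637 bases after the start, with a mean of 1.17 and a mean GC content of 56.7%. The set mean passed the bound of 1.37, but its highest probe stayed under the 1.76 that each of a pair had to reach. Bmpr1a was not called, and only 10 of its 30 probes were measured.

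Smad1, the receptor-activated Smad that carries the BMP signal, had the highest single probe of the 10 genes. That probe lay across the RefSeq start and stood at 3.68, a 12.8-fold excess of immunoprecipitate over input, with signals of 561 in the input and 6075 in the immunoprecipitate. Its neighbours did not share this level: the probe from 177 to 221 bases after the start stood at 0.79, and the one from 234 to 179 bases before it at 0.15. The highest set, which reached 442 bases into the gene, was 1.88 ± 1.57 (SD, 3 probes), an SD nearly as large as the mean. That set held only 1 probe over 1.85, and for the set centred on the start, which stood at 1.54, neither neighbour reached 0.92, so no probe of Smad1 was called. At a GC content of 64.4%, the probe at the start still stood at 2.75 with the GC trend subtracted, while those neighbours stood at 0.26 and 0.48. A value at 1 spot without a replicate has no further check. Smad1 was called under none of the 4 settings.

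The inhibitory Smads gave a different picture. Smad6, which binds receptors and Smad1, had a broad low stretch inside the gene: 8 probes in a row stood above 0 from 562 to 1766 bases after the start, with a mean of 0.87, a mean GC content of 58.8% and 0 surrogates. Its highest set (1.39 ± 0.61, SD, 3 probes) lay from 1381 to 1766 bases after the start, with probes at 1.69, 0.69 and 1.79. With measured spots this set stood at 1.57 ± 0.61 and was called through its middle probe, the lowest of the 3, since both outer probes passed the bound for a pair. Subtracting the GC trend ended the call (1.14 ± 0.52, SD, 3 probes). Around the start of Smad6 the values were lower: the probe from 81 to 27 bases before the start stood at 0.47 and the next one, from 158 to 202 bases after it, at -0.20.

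Smad7, which inhibits both the BMP and TGF-beta branches, had the most even of the high sets, with probes at 2.11, 1.83 and 1.76 (1.90 ± 0.18, SD; chromosome 18, 75762468 to 75762832). Only 2.82% of the genes of array 2 had a higher set mean. The set was not called with all spots, since just 1 of its probes reached 2.00. All 3 of its probes were called with measured spots, at 2.08 ± 0.18 (SD, 3 probes). Their GC content was 73.3%, 60% and 80%, and with the GC trend subtracted the set stood at 0.99 ± 0.57 and was not called. The first of these probes holds the Smad binding palindrome GTCTAGAC, the only one of the 378 probes to do so (0.265%, against 0.0645% of all probes), and the third holds GGCGCC. Among the 5407 probes of all genes called with all spots, 0 held the palindrome, and a share that rests on 1 probe shows no excess.

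Among the Id genes, Id1 was called and Id2 and Id3 were not. With all spots, Id1 had the highest set mean of the 10 genes at 1.97 ± 0.40 (SD, 3 probes; chromosome 2, 152478412 to 152478834), a 3.92-fold excess, whereas with measured spots Bmp4 (2.18) and Smad7 (2.08) stood above Id1 (2.01). Its 3 probes, printed above, stood at 2.41, 1.88 and 1.62, with immunoprecipitate signals of 14179, 4504 and 1771 against input signals of 3147, 1451 and 679. All 3 were measured and had a GC content of 43.8% to 48.9%, and the set stood at 2.11 ± 0.60 with the GC trend subtracted. The next probes on either side stood at 0.69 and -0.28. Of the genes of array 1, 12.4% had a higher set mean with all spots and 2.34% with the GC trend subtracted. The probe at 2.41 carries a mark as an outlier of the Cy5 background, and without marked spots the highest set of Id1 was 1.40 and was not called. A second high probe of Id1, at 2.12 with a GC content of 57.8%, lay more than 2 kb away with a neighbour at 1.18 and was not called. None of the 3 probes of the set holds one of the Tcf/Lef words.

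With all spots, Id2 had the lowest highest-set mean of the 10 genes, 1.00 ± 1.61 (SD, 3 probes), and it rested on 1 probe. That probe, from 2802 to 2758 bases before the start, stood at 2.85 with signals of 591 in the input and 4181 in the immunoprecipitate, while the other probes of the set stood at 0.00 and 0.14. With the GC trend subtracted it stood at 1.97, at a GC content of 71.1%. At the start of Id2, the probe from 68 to 23 bases before it stood at 1.54, between neighbours at 0.01 and 0.35. Id3 was low and even, with a highest set of 1.14 ± 0.15 (SD, 3 probes) from 920 to 1338 bases after the start and probes at 1.28, 0.99 and 1.16. Its highest single probe, at 1.99, lay from 1389 to 1337 bases before the start and carries the same Cy5 background mark as the Id1 probe. Id2 stood under the median of all genes of array 2 (1.07), and 55.5% of the genes of array 1 had a higher set mean than Id3, both with all spots.

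**Figure D3:**
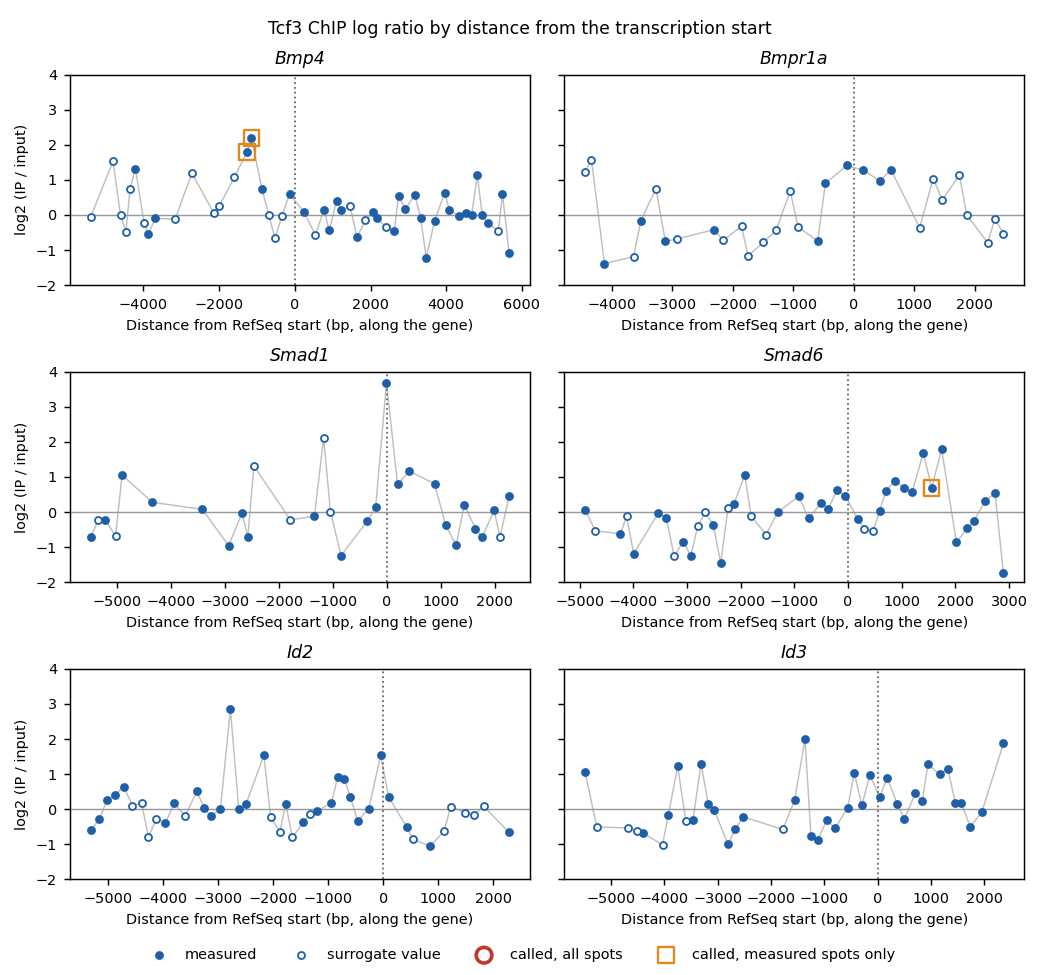
Log2 ratio of each probe (y axis) against its distance in bp from the RefSeq start along the gene (x axis, dotted line at the start) for the 6 genes with a promoter window; filled points were measured, open points are surrogates, and orange squares mark probes called with measured spots only. Smad1 has 1 probe at 3.68 on the start, Id2 has 1 at 2.85 upstream, Bmp4 has the called pair upstream, and 0 probes of these 6 genes were called with all spots.

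Set against all genes, the 10 genes had a median highest set mean of 1.59, and all genes had 1.15. On array 1 the medians were 1.68 and 1.22, and on array 2 they were 1.40 and 1.07. With all spots, in 8 of the 10 genes the value lay above the median of all genes of its array, the exceptions being Id2 and Id3. This changed with the setting. With measured spots, 29.2% of the genes of array 2 stood above Id2 and 43.1% of those of array 1 above Id3. With the GC trend subtracted from all spots these shares were 49.95% and 46.6%, and 59.7% of the genes of array 1 stood above Bmp7. The 10 genes had a median of 37.5 probes each, against 28 for all genes, and more probes give more sets from which the highest is taken. Their share of surrogates was lower as well, as given above. With the GC trend subtracted the medians were 1.07 and 0.91. The part of probe number, surrogates and GC content in the remaining difference was not tested.

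**Figure D4:**
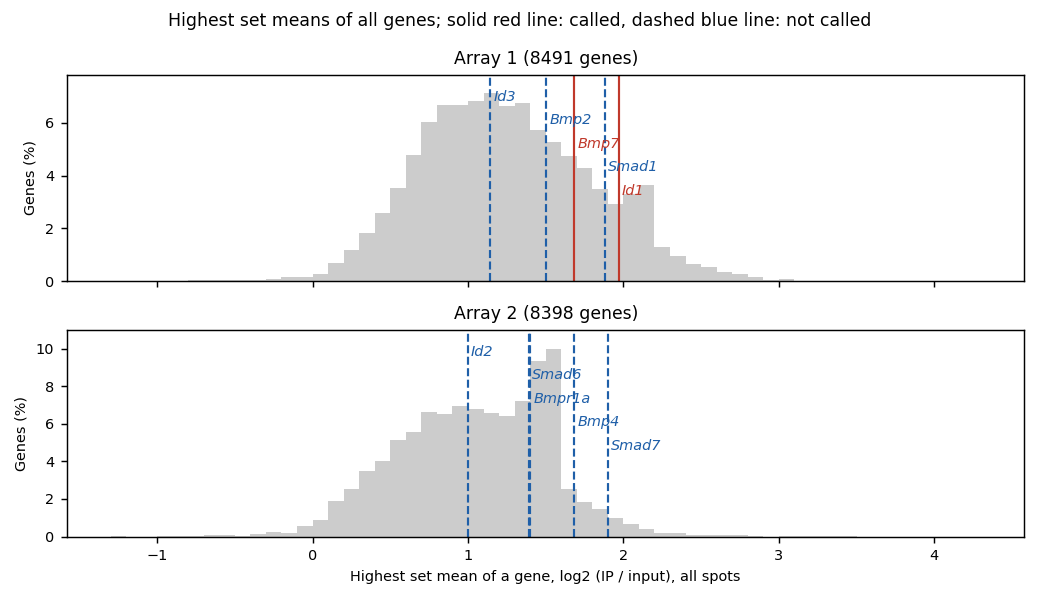
Share of genes (y axis, percent) by highest set mean with all spots (x axis, log2 ratio, bins of 0.1), for each array, with the 10 genes as vertical lines, solid red where called and dashed blue where not. Id1 at 1.97 and Smad7 at 1.90 stand highest on their arrays among the 10 genes, and Id3 at 1.14 and Id2 at 1.00 stand lowest.

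GC-rich probes of these genes had higher log ratios as a group. In all 10 genes, the median of the probes with 55% GC or more exceeded that of the other probes. Such probes were few in some genes: Id1 had only 2, Bmp4, Smad1 and Id2 had 3 each, and Bmpr1a had 4. Across all probes of a gene, which share 1 array, the rank correlation (Spearman) of log ratio with GC content was -0.08 in Bmp4 (51 probes) and -0.04 in Bmpr1a (30 probes), and it was above 0 in the other 8 genes. On array 1 the 30 GC-rich probes had a median of 1.05 and 96.7% of them stood above 0, against -0.12 for the 143 others. Array 2 showed 0.71 in 29 GC-rich probes and -0.10 in 176 others. Over all genes the medians of GC-rich probes were 0.75 and 0.34, and those of the others -0.07 and -0.04. Of the 10 highest sets with all spots, 6 had a mean GC content of 55% or more, and 9 of the 10 values were lower with the GC trend subtracted, the exception being Id1. The part of GC content in the calls of Bmp7, Smad6 and Smad7 was not tested beyond this subtraction.

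**Figure D5:**
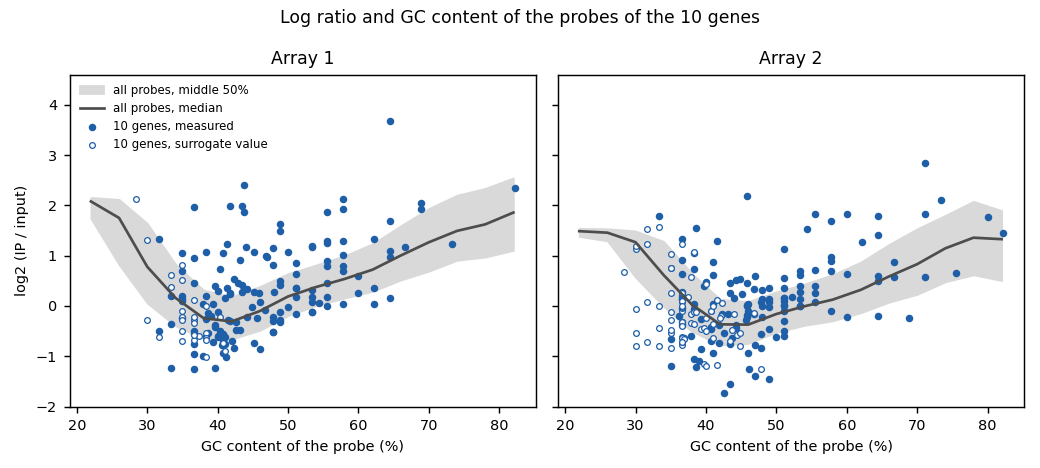
Log2 ratio (y axis) against GC content in percent (x axis) for the 378 probes of the 10 genes, filled where measured and open where a surrogate, with the median and the middle 50% of all probes of the array in grey. The median of all probes climbs from 46% to 78% GC and is also high at 30% GC and less, and the probe of Smad1 at 3.68 stands above that band.

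Sequence words were searched on both strands. For Tcf/Lef these were the word CTTTGAA, the word CTTTGAT, the word CTTTGTA and the word CTTTGTT. At least 1 of them was in 13 of the 378 probes (3.44%) and in 5.69% of all probes. Among all probes the share was 1.63% at 45 bases, 3.89% at 48 bases and 7.53% at 60 bases. The 3.44% and 5.69% were not matched for probe length, so their difference does not show a lack of these words in these genes. Those 13 probes belonged to 8 genes and had a median log2 ratio of 0.17, with 7 of them above 0 and 4 surrogates. The Bmp4 probe at 1.80 was the highest of them. Among called probes of all genes, 5.84% held a Tcf/Lef word with all spots and 3.66% with measured spots. Of the 6 RefSeq promoter windows of 300 bases (250 before and 50 after the start), 0 held one of these words, against 16.9% of all windows. Their shorter core CTTTG was in 2 of the 6, Smad1 and Smad6, against 54.0% of all windows. The word GGCGCC was in 4 probes (1.06%, against 0.248% of all probes and 1.27% of all probes of 45 bases), 1 each in Bmp7, Smad7, Id2 and Id3, with log2 ratios of 0.42, 1.76, 2.85 and 0.11. It was in the windows of Bmpr1a and Id2, against 12.0% of all windows. The palindrome GTCTAGAC was in the window of Smad6, against 0.211% of all windows.

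Of 43 other genes of the pathway on a list drawn up by role, 42 were analysed, and 11 of them were called with all spots. The background is the 13.0% of all genes given above, or 22.4% on array 1 and 3.62% on array 2. Array 1 carried 20 of these genes with 10 called, and array 2 carried 22 with 1 called. Among 11 ligands, Bmp3 (1.89 ± 0.07, SD, 3 probes as in the sets that follow, 2 of them surrogates) and Bmp8a (1.71 ± 0.81) were called. Of 5 receptors, the type I receptor Bmpr1b (1.68 ± 0.80, 3 surrogates) and the type II activin receptor Acvr2a (1.99 ± 1.42) were called. One of 5 Smads was called, Smad2 (1.82 ± 1.21, 1 surrogate), which carries TGF-beta and activin signals. Of 10 extracellular or membrane inhibitors, Bmper (2.05 ± 1.12) and Nbl1 (1.93 ± 0.49), both of which bind BMPs, were called. Ski (2.03 ± 1.49) and Skil (2.13 ± 0.99), 2 of 4 intracellular inhibitors and both nuclear co-repressors of Smads, were called as well. Of 7 targets, the homeobox gene Dlx5 (2.14 ± 1.18, 1 surrogate) and the Notch and BMP target Hey1 (2.86 ± 1.35) were called, and Hey1 had the highest set mean of the 42. The sets given for Acvr2a, Nbl1 and Dlx5 were their highest and not those around their called probes. The sets around the called probes had means of 1.75, 1.65 and 1.92. Those called probes themselves stood at 3.62, 0.33 and 3.50.

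With measured spots, 13 of the 42 were called, beside 13.7% of all genes. Bmp8a, Acvr2a, Smad2, Bmper, Nbl1, Ski, Skil, Dlx5 and Hey1 were among both, and Bmp3 and Bmpr1b were not called with measured spots. The ligands Gdf2 (1.38 ± 1.09) and Gdf6 (2.10 ± 0.59, 2 probes), the BMP Smad Smad5 (1.49 ± 0.72) and Fst, which encodes the activin-binding protein follistatin (1.65 ± 0.92, highest set; 1.59 for its higher called probe), were called there in addition. With the GC trend subtracted from all spots, 6 were called, among them Ski, Dlx5 and Hey1, beside 10.7% of all genes. With the trend subtracted from measured spots, 12 were called, beside 13.3% of all genes. The set of Hey1, with a GC content of 71.1%, stood at 1.55 with the trend subtracted. The median highest set mean of the 42 genes with all spots was 1.38, between the 1.59 of the 10 genes and the 1.15 of all genes. With the GC trend subtracted it was 1.09, beside 1.07 for the 10 genes and 0.91 for all genes.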

How the data were processed

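The 10 genes, the list of other pathway genes and the sequence words were chosen with earlier results of these data known. Per the file headers, Agilent Feature Extraction 9.1.1.1 gave each spot a processed intensity in each channel after background subtraction and dye normalization. The log10 ratio column deposited by the authors served as an alternative. The authors' own calls and their series value table were not used here.

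From the intensities, log2 ratios were computed here, without spots marked non-uniform (0 of the 378), and called as described above, each array alone. The upper-tail normal probability had to be under 0.001 for a set mean, under 0.001 for a single probe with a neighbour under 0.1, or under 0.005 for each of a pair. A gene was called when a called probe named it. GC trends were medians per bin of 2%. Python 3.11.15 and R 4.3.3 with limma 3.58.1 (normexp, offset 50) were used.

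Array gene names were updated with a RefSeq table of GRCm38.p6: 12587 matched a current symbol, 3876 an older one and 633 none. Named are the 10 genes, each other pathway gene called with all or with measured spots, and Axin2 and Tcf7l1. In all, 10 alternatives were planned, and 1, with the probes of a set taken as independent, was added after the data were seen.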

Additional observations from a re-analysis of the deposited data

How the results depend on the processing

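Each value comes from 1 spot per probe on 1 array, so precision between experiments is unknown, and 102 of the 378 probes carried a surrogate. The highest set means of the 10 genes stayed above 0 under every alternative. This does not set them apart, since the highest of many sets lies above 0 in most genes (median of all genes 1.15 with all spots). Of the 10 genes, 2 were called in the main setting (13.0% of all genes), 5 with measured spots (13.7%), 10 with normexp background correction (49.3%), 1 without marked spots (12.6%), 1 at a set probability of 0.0001 (8.54%) and 5 by the set probability alone (20.1%). Of the 42 other pathway genes, 11 were called with all spots, 6 with the GC trend subtracted (10.7% of all genes), 30 with normexp and 6 at a set probability of 0.0001. The other alternatives kept both counts within 1.5 times. Of 12 settings, Id1 was called in 11, Bmp7 in 9, Bmp4 in 4, Bmp2 and Smad7 in 3, Smad1 and Smad6 in 2, and Bmpr1a, Id2 and Id3 in 1, which was normexp. Smad1 was called with normexp and by the set probability alone. The cause of these differences was not tested. No paired analysis was possible because the arrays carry different probes.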
